A study of Mus musculus with 5 samples.

Results

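In mRNA, N6-methyladenosine (m6A) is deposited by METTL3 together with METTL14 and WTAP, and most of it lies in DRACH motifs, where D is any base but cytidine, R is a purine, H is any base but guanosine, and the adenosine in the middle is the one that is methylated. The positions described here are the DRACH adenosines that are preceded directly by another adenosine, written DAACH, and they were set beside those preceded by guanosine, written DGACH. A position was taken if it was deposited, lay on an exon of GENCODE M21 (mouse genome mm10, strand of the call) and read DAACH in every transcript that covers it. This gave 15806 DAACH positions on 2459 genes among 468161 exonic positions of the METTL3 inhibition dataset, beside 24117 DGACH positions. The Mettl5 dataset had 6760 DAACH positions on 927 genes among 193656 exonic positions, beside 9321 DGACH positions. In all, 17412 DAACH positions on 2561 genes were covered in either dataset, and 5154 in both. The motif rule used no methylation value, so the levels below are not fixed by it, although earlier results of these data were known when the motif was chosen.

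The study sequenced native poly(A) RNA of mouse embryonic stem cells (mESCs) on nanopores, where each adenosine of each read is called m6A, unmodified or another modification from the current trace. For the METTL3 inhibition dataset, E14 mESCs labelled WT were given 30 μM STM2457, an inhibitor of METTL3 catalysis, for 48 h (1 library), or the solvent DMSO at 0.025% (1 library, time not stated). By the study's methods this line carries the reporters 2C::3xtbGFP-PEST and Zscan4::mCherry-PEST, a doxycycline-driven APOBEC1-YTH fusion and a homozygous FKBP12 degron at the Mettl3 C terminus, none of them induced, and DMSO and STM2457 cells share all of these. For the Mettl5 dataset, untreated WT mESCs (1 library) were set beside 2 Mettl5KO clones (1 library each, clone 1 and clone 2), which lack the methyltransferase of 18S ribosomal RNA (rRNA), and both clones are compared with the same WT library. Within a dataset the libraries share a batch label, and the datasets differ in cell line and batch, so a difference between DMSO and WT cannot be told apart from either.

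The methylation level of a position is its m6A calls as a percent of its valid calls, and a position at 25% or more is called methylated here. All deposited positions had at least 25 valid calls, with a median of 45 to 64 per library and 17897440 to 71574467 valid calls in all. Of the mESC markers examined, 9 of 9 had deposited positions in the METTL3 inhibition dataset and 8 of 9 in the Mettl5 dataset, against 0 of 6 feeder fibroblast and 0 of 5 primitive endoderm markers in both. Among 4 neural markers, Tubb3 was covered in the METTL3 inhibition dataset and none in the other. Neither Mettl3 nor Mettl5 had a deposited position, so the knockout cannot be checked from these positions. The WT library stands apart in 1 respect, since 9.18% of its valid calls at exonic positions lay on Gm42418, a copy of 18S rRNA, against 0.333% and 0.359% in the clones, 0.0872% in DMSO and 0.0658% in STM2457.

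The sequences below show 1 site per DAACH motif, 9 in all, each being the most methylated of its motif in DMSO among sites with 50 or more valid calls in DMSO and STM2457. They are read from GENCODE M21 transcripts on mm10, 5′ to 3′, with 10 bases on each side of the called adenosine, and the capitals mark the motif. The sites differ within the motif in the first and last capital only.
Traf4, chr11:78159940, minus strand, coding sequence of exon 7: ccucugucGAACUgccccgga
Tmem11, chr11:60864985, minus strand, coding sequence of exon 2: augccuauAAACUgucccgcc
Mesd, chr7:83898958, plus strand, 3′ UTR in exon 3: cgcuaaaaGAACAuuucuaug
Fbxo22, chr9:55223692, plus strand, 3′ UTR in exon 7: acaccaugUAACUuugggggu
Zfp57, chr17:37010323, plus strand, coding sequence of exon 3: aucuucauGAACCcguggugc
Mrpl36, chr13:73331740, plus strand, 3′ UTR in exon 2: agaaaaauAAACAuuaagcau
Pym1, chr10:128766125, plus strand, 3′ UTR in exon 3: ugcagaacAAACCauggggug
Gemin7, chr7:19565106, minus strand, 3′ UTR in exon 3: gaugcagaUAACCcuggcucu
Emc6, chr11:73176317, minus strand, 3′ UTR in exon 2: gccagaauUAACAccggguag

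These sites show that high methylation occurred on nearly every DAACH motif. Traf4, which encodes a TNF receptor associated adaptor, was at 98.4% in DMSO (61 of 62 calls). Tmem11, encoding a mitochondrial inner membrane protein, was at 97.1% (100 of 103), and Zfp57, the zinc finger protein that maintains methylation at imprinted loci, at 98.0% (100 of 102). Fbxo22, a substrate receptor of an SCF ubiquitin ligase, stood at 97.1% (68 of 70), and Mesd, a chaperone of LDL receptor family proteins, at 94.2% (49 of 52). With UAACC the highest site was Gemin7, of the SMN complex, at 78.9% (90 of 114), with AAACC Pym1, of exon junction complex recycling, at 72.6% (53 of 73), and with AAACA Mrpl36, of the large mitochondrial ribosomal subunit, at 54.1% (60 of 111). UAACA was the exception in the METTL3 inhibition dataset. Its highest site, Emc6, encoding a subunit of the ER membrane protein complex, reached 9.71% (17 of 175), and 1 UAACA position with fewer calls reached 26.9%. All 9 sites were lower in STM2457: 34.3% for Traf4, 44.1% for Tmem11, 60% for Zfp57, 52.8% for Fbxo22, 29.1% for Mesd, 20.2% for Gemin7, 15.7% for Pym1, 3% for Mrpl36 and 0.508% for Emc6. Each of these differences passed Fisher's exact test between the 2 libraries with Benjamini-Hochberg adjustment over all exonic positions, with adjusted p from 7.32e-17 for Tmem11 to 0.00255 for Emc6. The sites were chosen by their DMSO level, so counting error adds to that level and to these differences.

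Fewer DAACH than DGACH positions were methylated in each of the 5 libraries. In DMSO, 1256 DAACH positions (7.95%, exact 95% binomial interval 7.53 to 8.38) were at 25% or more, against 4443 DGACH positions (18.4%, 17.9 to 18.9) and 0.153% of all other exonic positions. In STM2457 the shares were 1.22% of DAACH (193 positions) and 3.86% of DGACH (931 positions). WT had 4.42% (299) and 10.7% (999). The clones had 4.69% (317) and 11.1% (1037) for clone 1 and 4.79% (324) and 11.4% (1061) for clone 2. The DAACH share was lower than the DGACH share by 10.5 percentage points in DMSO and by 2.64 in STM2457, and by between 6.29 and 6.59 in the Mettl5 dataset. The mean difference was -6.49 points (SD 2.77, 5 libraries), and the exact sign-flip permutation test gave p = 0.0625 (two-sided), the smallest value that 5 libraries allow. The libraries share positions and differ in condition, so they are not independent replicates of 1 difference. Among positions with at least 100 valid calls the mean difference was smaller, at -2.93 points. DAACH made up 39.6% of DRACH positions in the METTL3 inhibition dataset but 22.0% of those methylated in DMSO and 16.5% of those at 80% or more. Intervals cover counting error only, and positions of 1 gene share reads. Median coverage was alike for both classes (63 and 64 valid calls in DMSO). Calls that failed the confidence filter were more frequent at DAACH, at 5.36% to 6.17% against 2.84% to 3.52% at DGACH. With failed calls in the denominator the mean difference was -6.51 points, against -6.49 points without them. How many of the failed calls were m6A was not tested.

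Most DAACH positions carried little or no m6A, and the methylated ones were spread over the whole range. In DMSO, 7240 of 15806 (45.8%) had no m6A call and another 5040 (31.9%) were above 0 and below 5%. Between 25% and 50% there were 629 positions, between 50% and 80% 389, and at 80% or more 238. The median level of the methylated DAACH positions was 49.4% in DMSO, against 57.4% for DGACH.

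Within DAACH the first and last base of the motif went with large differences. With guanosine first and uridine last, as in GAACU, 35.4% of positions were methylated in DMSO (755 of 2132, interval 33.4 to 37.5). AAACU followed at 10.1% (221 of 2194) and GAACA at 7.25% (161 of 2222), then UAACU at 3.70% (43 of 1163) and GAACC at 2.74% (51 of 1861). The remaining motifs were nearly unmethylated: AAACA at 0.701% (17 of 2425), AAACC at 0.325% (6 of 1847), UAACC at 0.107% (1 of 934) and UAACA at 0.0973% (1 of 1028). The intervals of UAACU and GAACC overlap, as do those of the last 4 motifs with a neighbour in this order, and all others in the order lie apart. Summed over the other variable base, 15.6% of positions with guanosine first were methylated, 3.77% with adenosine first and 1.44% with uridine first. For the last base it was 18.6% with uridine, 3.15% with adenosine and 1.25% with cytidine. GAACU thus held 60.1% of the methylated DAACH positions in DMSO while it made up 13.5% of all DAACH positions, and AAACU and GAACA held another 17.6% and 12.8%.

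The same motifs led in each library. In WT, 22.6% of GAACU positions were methylated (203 of 900), beside 25.4% (229) for clone 1 and 24.8% (223) for clone 2, and the intervals there (lowest bound 19.9, highest 28.4) overlap one another. AAACU came next with 5.03%, 4.82% and 5.45%, and GAACA after it with 2.92%, 2.59% and 3.03%. In STM2457, 7.27% of GAACU positions were still at 25% or more, 0.912% with AAACU and 0.495% with GAACA. Of the methylated DAACH positions, GAACU made up 67.9% in WT, 72.2% and 68.8% in clones 1 and 2, and 80.3% in STM2457.

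**Figure D1:**
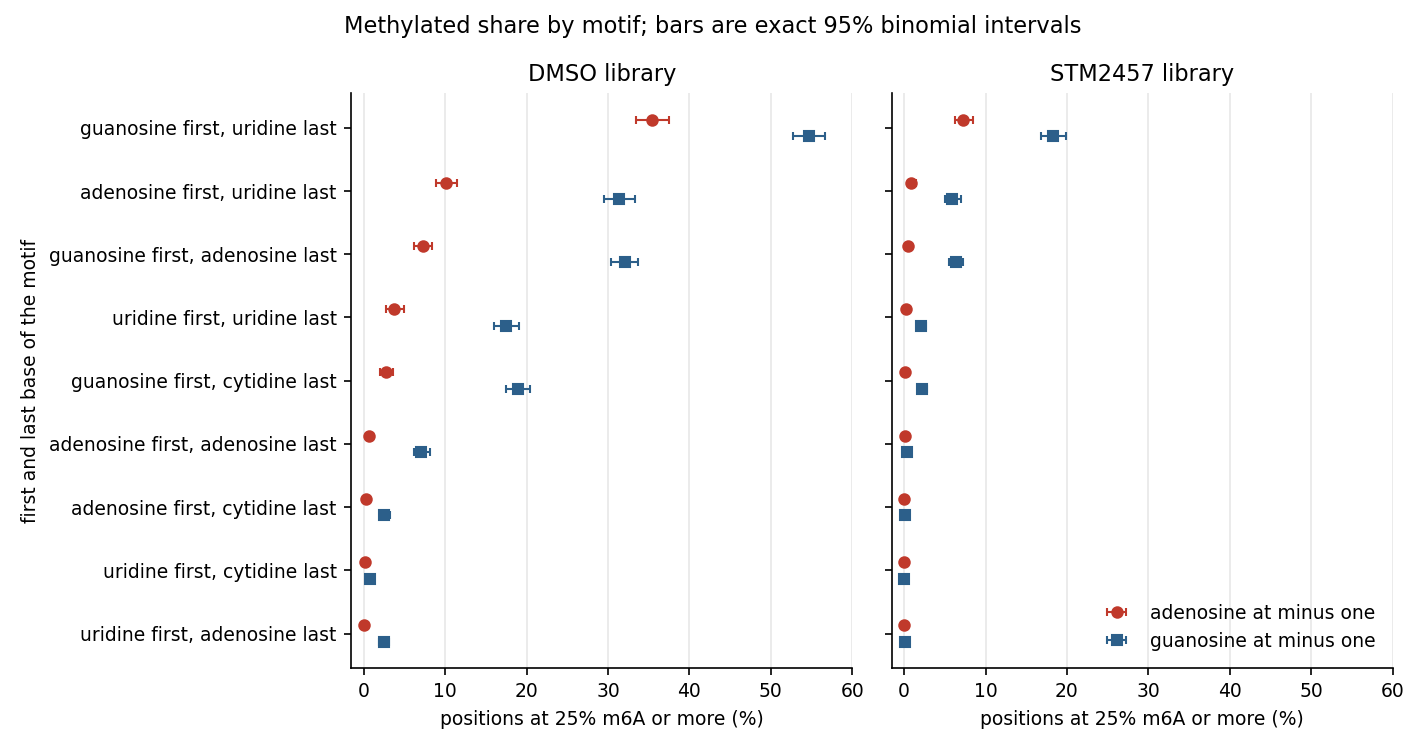
Share of positions at 25% m6A or more (x axis, percent) for each pair of first and last motif base (y axis), in DMSO (left) and STM2457 (right), with adenosine (circles) or guanosine (squares) before the called adenosine; bars are exact 95% binomial intervals. In DMSO the pair guanosine and uridine leads both classes, with 35.4% and 54.7%, and each circle lies to the left of its square.

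Beside the DGACH motif with the same outer bases, each DAACH motif was methylated less often in DMSO, but by unequal factors. GGACU stood at 54.7% (1387 of 2534), which is 1.55 times the GAACU share. For AGACU the share of 31.4% was 3.12 times that of AAACU. For GGACA, at 32.1%, the factor over GAACA was 4.42, and for UGACU, at 17.5%, it was 4.74 over UAACU. The GGACC share of 19.0% was 6.92 times that of GAACC, and the AGACA share of 7.09% was 10.1 times that of AAACA. Among the motifs with few methylated positions, the factor was 7.83 for AGACC, 7.05 for UGACC and 25.3 for UGACA, each against 6 or fewer methylated DAACH positions. GAACU was thus nearer to its guanosine counterpart than the other 8 DAACH motifs on the scale of this ratio. In STM2457 the ratio of GGACU to GAACU was 2.51 and that of AGACU to AAACU 6.52, both larger than in DMSO. In WT the ratio of GGACU to GAACU was 1.79 and that of AGACU to AAACU 3.99, and the clones gave 1.62 and 1.66 for the first, 4.16 and 3.92 for the second.

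The datasets were also compared on the positions that they share. On the 5154 DAACH positions of both datasets, the methylated share was 5.90% in DMSO, 0.757% in STM2457, 4.37% in WT, and 4.79% and 4.83% in clones 1 and 2. GAACU in this set stood at 28.4% in DMSO and at 22.7%, 25.9% and 25.1% in WT and the clones. Of the 304 DAACH positions methylated in DMSO, 216 (71.1%) were methylated in WT, which is 96.0% of the 225 methylated in WT. At these 216 positions the median level was 59.4% in DMSO and 48.3% in WT.

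**Figure D2:**
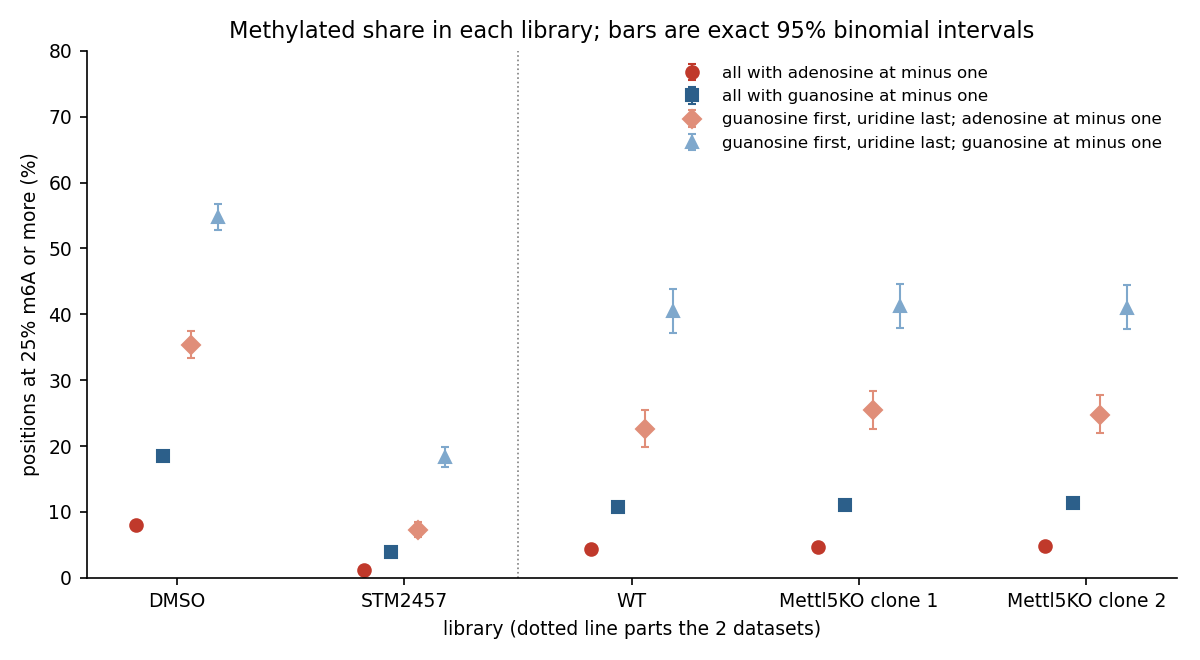
Share of positions at 25% m6A or more (y axis, percent) in each of the 5 libraries (x axis) for all DAACH (circles), all DGACH (squares), GAACU (diamonds) and GGACU (triangles); bars are exact 95% binomial intervals and the dotted line parts the datasets. DAACH lies between 1.22% and 7.95%, below DGACH in every library, and WT and the clones lie close together.

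The STM2457 library had lower levels than the DMSO library at DAACH positions, with a median relative decrease about that of DGACH positions. Lower levels passed the per-position test at 1366 of 15806 DAACH positions (8.64%), where 1.35% of all exonic positions were called lower, at 4456 DGACH positions (18.5%) and at 741 of 2132 GAACU positions (34.8%). No DAACH position was called higher by Fisher's exact test after adjustment, with 10 at an unadjusted p under 0.05, where 0.00235% of all exonic positions were called higher. Of the positions methylated in DMSO, 998 of 1256 DAACH were called lower, beside 3570 of 4443 DGACH and 266 of 657 other exonic positions. With 1 library per condition, the test compares these libraries and not the conditions.

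Since these 1256 positions were chosen by their DMSO level, counting error adds to that level and to the decrease, in both classes. Their median level went from 49.4% in DMSO to 8.31% in STM2457. The median relative decrease was 82.4% (interval of the median 81.5 to 83.2, quartiles 72.6 and 89.8), against 80.3% (79.8 to 80.8) for DGACH. After STM2457, 193 DAACH positions (15.4%, 13.4 to 17.5) were still at 25% or more, against 20.9% (19.7 to 22.2) of DGACH. Pooled over all DAACH positions, m6A calls went from 4.65% of valid calls to 1.20%, a relative decrease of 74.2%, against 73.5% for DGACH and 13.1% for the other exonic positions. The difference in kept positions depended on how genes were weighted: with equal weight per gene the kept shares were 13.5% for DAACH and 15.2% for DGACH.

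The relative decrease was smaller at higher DMSO levels, and at like levels the classes did not lie apart. Among DAACH positions at 25% to 35% in DMSO the median relative decrease was 88.1% (328 positions), and 87.6% for DGACH. It was 85.5% and 86.3% between 35% and 50%, 84.0% and 83.0% between 50% and 65%, and 79.1% and 79.4% between 65% and 80%. At 80% or more it was 63.8% (238 DAACH positions) and 63.4%, and there 71.0% of DAACH (interval 64.8 to 76.7) and 70.4% of DGACH positions stayed at 25% or more. The intervals of the 2 classes overlapped at each of these levels. By motif, GAACU, with a median of 58.0% in DMSO, decreased by 81.0% and kept 20.5% of its methylated positions. AAACU (42.9% in DMSO) decreased by 84.4% and kept 9.05%, and GAACA (39.3%) decreased by 82.8% and kept 6.83%. The 17 methylated AAACA positions, at a median of 36.7%, decreased by 80.4% (interval of the median 75.7 to 89.9). This interval covers the decreases of the motifs just named, so the place of these 17 positions in an order by decrease was not resolved. GGACU, at 73.9% in DMSO, decreased by 76.6% and kept 33.4%.

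**Figure D3:**
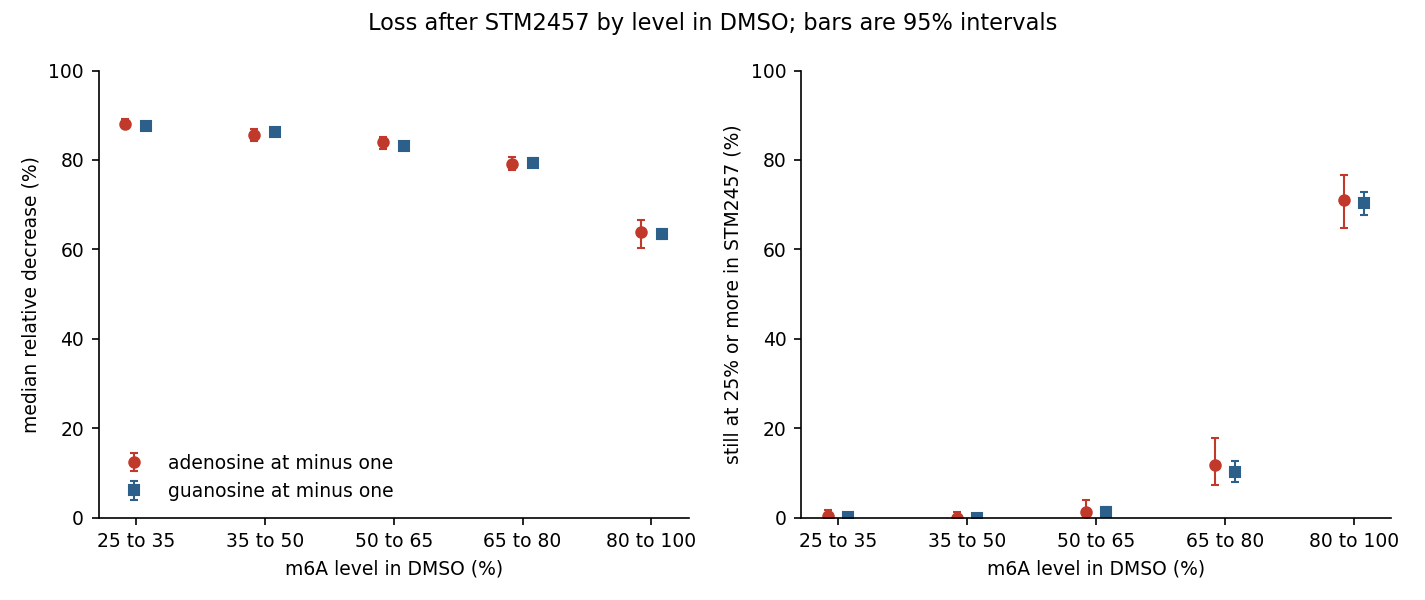
Median relative decrease after STM2457 (left, percent) and share of positions still at 25% or more (right, percent) by DMSO level in 5 ranges (x axis, percent), for DAACH (circles) and DGACH (squares); bars are 95% intervals of the median and exact 95% binomial intervals. The classes overlap in each range, and both fall from about 88% to below 64% in relative decrease.

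The weakly methylated motifs UAACA and UAACC lost a smaller part of their pooled signal than the other DAACH motifs. Pooled m6A calls at UAACA went from 1.10% of valid calls to 0.696%, a decrease of 36.6%, and at UAACC from 0.544% to 0.320%, a decrease of 41.1%. The other 7 DAACH motifs decreased by 65.8% (AAACA) to 80.5% (AAACU). The part of false m6A calls in such low pooled levels was not tested.

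The positions with the highest levels in STM2457, among those methylated in DMSO with at least 100 valid calls in both libraries, included the coding sequences of Rbmxl1 and Pcbp1 and the 3′ UTRs of Ier2 and Hspa5. Zfp57 (shown above) and Yeats4 complete the 6 highest. The sequences are shown because these 6 sites kept the highest levels under inhibition by this rule, with the motif in capitals:
Rbmxl1, chr8:78506312, minus strand: uauuccauGAACUuuaacaug
Pcbp1, chr6:86525067, minus strand: ccacccauGAACUcaccauuc
Ier2, chr8:84661847, minus strand: ucagggucGAACUcucuaggg
Yeats4, chr10:117215725, minus strand, coding sequence: gaaacuauAAACUguuuaaaa
Hspa5, chr2:34776162, plus strand: ggacucagGAACUuucguugg

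Rbmxl1, a near copy of the RNA-binding protein gene Rbmx, so that reads of the pair may be mixed, was at 97.5% in DMSO (195 of 200) and 80.9% in STM2457 (207 of 256). Pcbp1, a poly(C)-binding protein, was at 95.2% (700 of 735) and 75.9% (418 of 551). Ier2, an immediate early gene, was at 93.1% (188 of 202) and 63.9% (94 of 147). Hspa5, the ER chaperone BiP, was at 92.9% (145 of 156) and 48.7% (110 of 226). Zfp57, shown above, was at 60% in STM2457, and Yeats4, a histone acetylation reader, went from 92.4% to 51.0% at an AAACU. All 6 were lower in STM2457 with an adjusted p of Fisher's exact test from 1.68e-21 (Pcbp1) to 1.45e-06 (Rbmxl1). Calr, encoding the ER chaperone calreticulin, and Ywhah, a 14-3-3 protein, were as high in DMSO, at 97.0% (656 of 676) and 96.8% (151 of 156), and were at 40.5% and 45.9% in STM2457.

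Several of these sites were also covered in the Mettl5 dataset. Pcbp1 was at 93.3% in WT, and at 93.1% and 93.2% in clones 1 and 2, with 178 to 279 valid calls. Calr was at 93.9%, 96.1% and 92.2%, Ywhah at 97.4%, 98.3% and 98.1%, and Tmem11 at 96.4%, 100% and 94.9%. Traf4, at 86.5% (32 of 37), 89.7% (26 of 29) and 87.5% (35 of 40), lay below its DMSO level in all 3 libraries. Rbmxl1 was at 88.5% in WT (77 of 87), 91.3% (42 of 46) in clone 1 and 96.5% (82 of 85) in clone 2, all below its 97.5% in DMSO. Traf4 and Rbmxl1 were named for their high DMSO levels, so lower levels in other libraries can stem from that choice. Hspa5 was at 86.8% in WT (79 of 91) and at 97.2% and 97.3% in the clones, with unadjusted p of 0.00667 and 0.00588 and adjusted p of 1 in both by Fisher's exact test.

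A decrease of less than 25% was seen at 13 of the 1256 methylated DAACH positions, and 12 of these were GAACU. It was also seen at 70 of the 4443 methylated DGACH positions and at 194 of the 657 other exonic positions methylated in DMSO. GAACU held 191 of the 238 DAACH positions at 80% or more in DMSO. The 13 sites were looked up after their values were seen. At B3gnt7, a glycosyltransferase gene, all calls were m6A in both libraries (34 of 34 and 31 of 31), and Cbx7, a Polycomb subunit, had 2 such sites, at 97.9% and 93.5% for the first and 100% and 77.8% for the second. Nodal, the TGF-beta family ligand, went from 100% (66 of 66) to 84.4% (38 of 45). The others were on Gfer, AI837181, Ints5, Nsmce3, Chtf8 and Wdr6, beside Rbmxl1 and Pcbp1, where the Ints5 and Chtf8 sites each lie on exons of 2 genes, and 11 of the 12 GAACU sites were above 90% in DMSO. The 1 site with another motif was an AAACA in the 3′ UTR of Ints11, a subunit of the Integrator complex, at 34.2% in DMSO (27 of 79) and 39.4% in STM2457 (13 of 33), with an adjusted p of 1 by Fisher's exact test. Of the 13 sites, 3 (Pcbp1, Rbmxl1 and Gfer) were called lower.

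**Figure D4:**
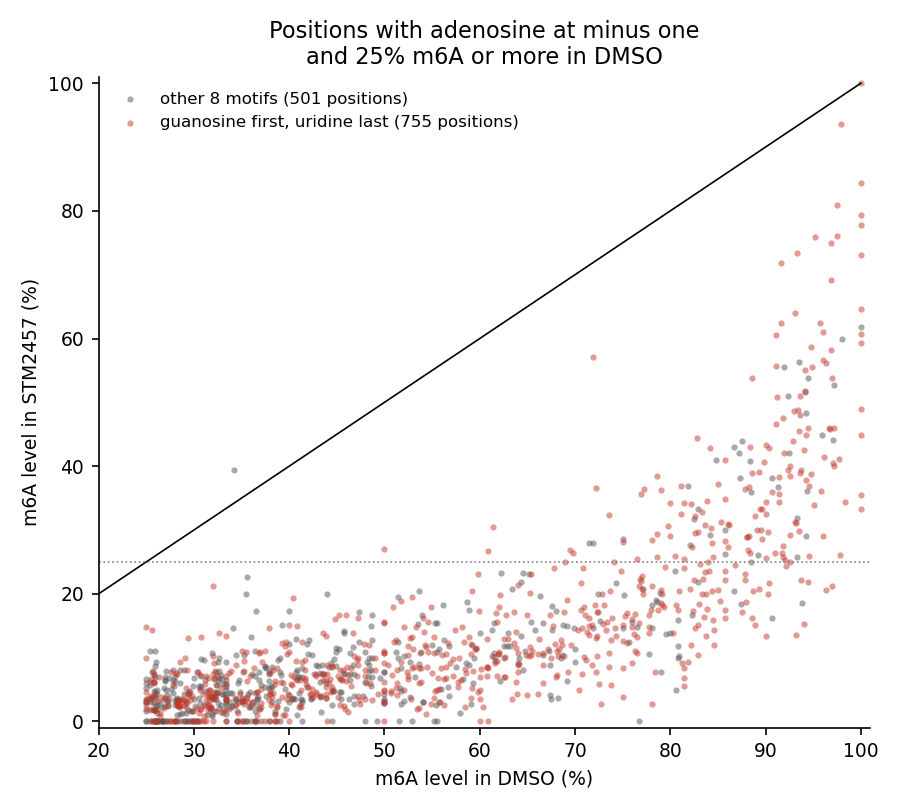
Level in STM2457 (y axis, percent) against level in DMSO (x axis, percent) for the 1256 DAACH positions at 25% or more in DMSO, with guanosine first and uridine last in red (755) and the other motifs in grey (501); the line marks equal levels and the dotted line 25%. Positions below 65% in DMSO lie almost all under the dotted line, and the 193 above it are mostly those near the right edge.

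DAACH methylation had the distribution along transcripts that is known for m6A, being more frequent in 3′ UTRs and rare near exon junctions. In DMSO 9.37% of DAACH positions in 3′ UTRs were methylated (876 of 9345), against 6.03% in coding sequence (362 of 5999) and 6.57% in 5′ UTRs (9 of 137). GAACU stood at 47.9% in 3′ UTRs and 22.2% in coding sequence, and GGACU at 72.1% and 36.7%. In WT, GAACU stood at 29.4% and 16.2%. On spliced transcripts, 1.34% of GAACU positions closer than 50 bases to an exon junction were methylated in DMSO (6 of 449), 12.6% between 50 and 100 bases, 52.9% between 100 and 200, 62.0% between 200 and 400 (207 of 334), and 45.0% at 400 bases or more. GGACU rose with distance in the same order, from 4.81% to 29.8%, 78.2% and 82.1%, and stood at 66.7% beyond. In WT the 5 GAACU shares were 1.01%, 6.60%, 41.0%, 41.8% and 25.8%. The median relative decrease after STM2457 was 82.3% for DAACH in 3′ UTRs and 82.6% in coding sequence.

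**Figure D5:**
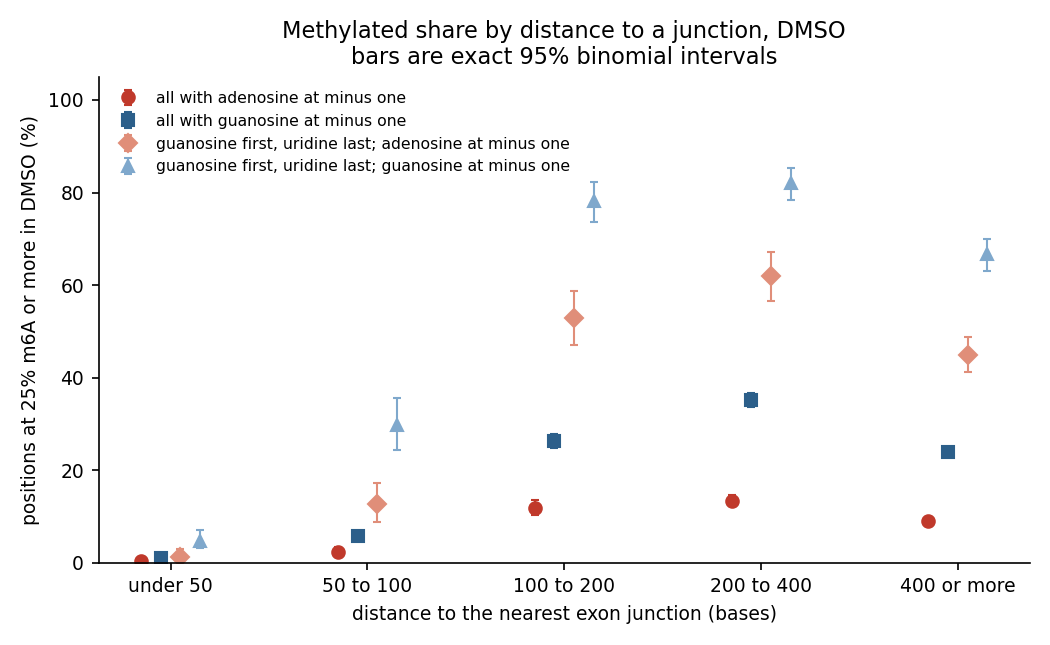
Share of positions at 25% m6A or more in DMSO (y axis, percent) by distance to the nearest exon junction (x axis, bases) for all DAACH (circles), all DGACH (squares), GAACU (diamonds) and GGACU (triangles); bars are exact 95% binomial intervals. GAACU goes from 1.34% under 50 bases to 62.0% between 200 and 400 bases.

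Bases outside the motif also went with the level at GAACU. Counted from the called adenosine, 49.8% of positions with uridine at the fourth base downstream were methylated in DMSO (299 of 600), 38.0% with adenosine, 29.3% with guanosine and 23.0% with cytidine (122 of 531). At the base directly after the motif, 20.8% were methylated with adenosine (69 of 332), against 41.8% with guanosine, 35.7% with uridine and 35.3% with cytidine. In WT the shares at the fourth base were 33.6% with uridine, 24.9% with adenosine, 15.4% with cytidine and 15.05% with guanosine. Directly after the motif, WT had 9.62% with adenosine, 22.9% with guanosine, 23.0% with cytidine and 29.8% with uridine, so adenosine was lowest in DMSO and WT while the highest base differed. GGACU varied less with these downstream bases in DMSO, from 42.1% with cytidine to 62.4% with uridine at the fourth base and from 47.6% with adenosine to 58.1% with guanosine after the motif. Upstream, GGACU varied more than GAACU in percentage points in DMSO. At the fourth base upstream GGACU ranged from 46.3% with guanosine to 63.5% with adenosine, and GAACU from 30.6% to 38.4%. At the third, GGACU ranged from 47.3% with guanosine to 61.6% with uridine, and GAACU from 29.2% to 39.6%. In WT, GGACU ranged from 30.7% with cytidine to 48% with uridine at the fourth base downstream. At the fourth base upstream in WT, GGACU ranged from 36.1% to 50.9% and GAACU from 16.7% to 26.2%. At the third, GGACU varied less than GAACU in WT. It ranged from 35.7% with cytidine to 45.2% with uridine, and GAACU from 17.8% with guanosine to 33.3% with cytidine (16 of 48).

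DAACH methylation was found mostly on transcripts that also carried it at DGACH. Of 2398 genes with positions of both classes, 666 had methylated positions of both in DMSO, 814 of DGACH alone, 108 of DAACH alone and 810 of neither. Of the 1256 methylated DAACH positions, 1130 were on a gene with a methylated DGACH position. The share of the other DAACH positions on such genes was not determined, so this count has no comparison. A methylated DGACH position lay within 100 bases on the same transcript for 721 of the 1256 (57.4%), against 25% of the DAACH positions below 25%. Among 811 genes with GAACU and GGACU positions, the mean level over genes was 25.9% for GAACU and 41.3% for GGACU, and GGACU had the higher mean in 584 genes and GAACU in 216.

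The gene with most methylated positions of both classes was Gemin4, of the SMN complex, with 9 of 35 DAACH positions methylated and 15 of 50 DGACH positions. Its methylated DAACH positions lay between 29.4% and 93.6% in DMSO, with a mean of 50.1% that went to 12.02% in STM2457, and its DGACH positions had a mean of 73.3% that went to 26.4%. Ints5, another subunit of Integrator, had 7 of 17 methylated DAACH positions with means of 67.9% and 27.7%, and Cbx7 had 7 of 20 with means of 58.2% and 27.6%. Ddx28, a mitochondrial DEAD box helicase, had 7 of 23 (46.2% and 12.3%) and Polr2m, a regulator of RNA polymerase II, 7 of 21 (48.8% and 11.4%). In each of the 5 genes the mean DGACH level in DMSO was the higher one, with the smallest gap in Cbx7 (58.2% and 59.2%).

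Among genes for stem cell identity, 13 of 23 core pluripotency genes had DAACH positions in the METTL3 inhibition dataset, and 10 of their 161 positions on 4 genes were methylated in DMSO (6.21%), against 7.95% over all genes. Among the 161 positions, 16 were called lower after STM2457 and 0 higher, where 8.64% of all DAACH positions were called lower, so the list is near the share of its class. The highest site of each gene is shown, with the motif in capitals:
Sox2, chr3:34651390, plus strand, 3′ UTR: uggacugcGAACUggagaagg
Nr0b1, chrX:86195520, plus strand, coding sequence: ucgucacuGAACUcuuuuuca
Esrrb, chr12:86519032, plus strand, coding sequence: ccaugcacAAACUcuuccugg
L1td1, chr4:98737063, plus strand, coding sequence: ggcuuaaaGAACUugccuuua

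In Sox2, a transcription factor that holds mESCs in the pluripotent state, all 42 calls were m6A in DMSO and 19 of 32 (59.4%) in STM2457. The site was as high in WT (97.3%, 36 of 37), clone 1 (96.6%, 28 of 29) and clone 2 (96.4%, 54 of 56). Nr0b1, which encodes the nuclear receptor DAX1, went from 86.8% (33 of 38) to 24.5% (12 of 49), Esrrb, a nuclear receptor of the naive state, from 75% (48 of 64) to 14.6% (6 of 41), and L1td1, an RNA-binding protein of pluripotent cells, from 68% (17 of 25) to 6.90% (2 of 29). L1td1 was at 50% in WT (26 of 52) and clone 1 (31 of 62) and at 59.2% in clone 2 (45 of 76). These 4 sites were lower in STM2457 with an adjusted p of Fisher's exact test from 1.85e-07 (Esrrb) to 3.95e-04 (Sox2), and Sox2 kept the largest part of its level. They too were chosen by their DMSO level, so counting error adds to the decrease.

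Of the m6A machinery, 7 of 25 genes had DAACH positions, of which 4 of 102 (3.92%) on 2 genes were methylated. The highest were a GAACU in the 3′ UTR of Igf2bp1, encoding a reader that stabilises methylated mRNA, at 72.5% in DMSO (29 of 40) and 5.88% in STM2457, and an AAACU in the coding sequence of Ythdf1, a cytosolic reader, at 67.3% (33 of 49) and 4.08%. Among cytosolic ribosomal protein genes, 3 of 142 DAACH positions (2.11%) were methylated in DMSO. The early-response and Myc genes had 5 of 16 (31.3%), on 2 genes. These lists were drawn up with results of these data known, and nothing about a list as a whole was tested.

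DAACH levels of the Mettl5KO clones lay near those of WT. Of 6760 DAACH positions, 393 were methylated in at least 1 library of this dataset and 247 in all 3, with mean levels of 44.2% (WT), 46.2% (clone 1) and 46.9% (clone 2). The median difference from WT was 1.99 points in clone 1 and 2.95 points in clone 2, with 176 positions higher in both clones and 96 lower in both, where the shared WT library ties the clones together. For DGACH the means were 49.4%, 52.6% and 52.8%, so the small upward shift was not seen in DAACH alone. By Fisher's exact test with adjustment, 1 of the 6760 DAACH positions (0.0148%) was called lower in clone 1 and 0 higher. Over all exonic positions, 0.00207% were called lower in clone 1 and 0% higher. At an unadjusted p under 0.05, 30 DAACH positions were lower there and 39 higher. In clone 2, 2 DAACH positions (0.0296%) were called lower and 1 (0.0148%) higher. Over all exonic positions, 0.0031% were called in each direction in clone 2. At an unadjusted p under 0.05, 32 DAACH positions were lower there and 50 higher. No DGACH position was called in either clone, with 25 and 41 lower and 98 and 132 higher at an unadjusted p under 0.05.

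Both lower calls lay on rRNA and not on mRNA, near the 3′ end of the 18S copy within Gm42418 on chromosome 17, and the sequences are shown because METTL5 is known to methylate 18S rRNA at a UAACA:
Gm42418, chr17:39848164, plus strand, non-coding transcript: aaaagucgUAACAagguuucc
Gm42418, chr17:39848183, plus strand, non-coding transcript: ccguagguGAACCugcggaag

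At the UAACA, which is the sequence around the known METTL5 target, 56.3% of 3054 WT calls were m6A, against 11.6% of 129 calls of clone 1 and 13.7% of 139 calls of clone 2, with adjusted p of 2.77e-20 and 1.81e-19 by Fisher's exact test. The same position was at 1.504% of 133 calls in DMSO and 9.09% of 77 in STM2457, although both come from cells labelled WT. At the GAACC, 19 bases downstream, the levels were 29.2% in WT (1351 of 4619), 15.8% and 13.4% in clones 1 and 2, with adjusted p of 0.602 and 0.0103, and 12.6% in DMSO. WT is thus high at both positions beside the other 4 libraries, and it is also the library with 9.18% of its valid calls on this transcript, with a median of 6922 valid calls per position there against 207 and 211 in the clones. The part of this depth in the difference was not tested, nor whether the calls at the GAACC are m6A or another modification. All 4 of the other libraries lay lower than WT at the UAACA, so the knockout cannot be told apart there from what else differs in the WT library.

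The next DAACH positions by the rule for changes shared by the clones, in Sf3b5 and Ywhae, had an adjusted p of 1 in both clones. The GAACU in the coding sequence of Sf3b5, a subunit of the splicing factor SF3b, was at 31.9% in WT (23 of 72), 10.9% in clone 1 (6 of 55) and 12.9% in clone 2 (12 of 93), and at 16.9% in DMSO (80 of 473). The AAACA in the 3′ UTR of Ywhae, a 14-3-3 protein gene, was at 2.39% in WT (9 of 376) and at 0 of 288 calls in clone 1, which allows up to 1.04%, and 0 of 346 in clone 2, which allows up to 0.867%. The 1 position called higher was found after its values were seen. It is an AAACC in the non-coding transcript 2900060B14Rik at 3.37% in WT (3 of 89), 5.97% in clone 1 (12 of 201) and 32.5% in clone 2 (26 of 80), with adjusted p of 1 and 0.00684 by Fisher's exact test, and so it was high in clone 2 only.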

How the data were processed

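Direct RNA reads of 5 mESC libraries were demultiplexed by the authors with WarpDemuX. The authors used dorado for basecalls, modification calls and alignment (mm10), and modkit for the pileup per position. The deposited counts give valid, m6A, unmodified, other-modification and failed calls per position, and the deposited percent is m6A of valid calls. Levels were recomputed from the counts, and the percent column was used as a check. Positions were matched to GENCODE M21 exons by strand, and motifs were read from transcripts, which had an A at 99.8% of exonic positions. A position with different motifs in its transcripts was left out (117 and 37 DAACH), and no genome was used. Depth sets the error of a level, and reads primed at the poly(A) tail favour 3′ ends and abundant transcripts. Modification calling was not repeated.

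Each position was compared between libraries by a two-sided Fisher's exact test, adjusted (Benjamini-Hochberg, threshold 0.05) over all exonic positions of a dataset (scipy 1.17.1), and the script was tested on simulated data. Shares have exact (Clopper-Pearson) and medians have order-statistic 95% intervals, for counting error only. No source says whether libraries came from separate cultures. Named sites are, by rule, the highest DMSO site of each motif, the 6 highest in DMSO and in STM2457 with at least 100 valid calls, the 4 most shared changes of the clones, the 5 genes richest in both classes and the highest pluripotency and m6A machinery sites. Motifs, lists and rules were chosen with earlier results of these data known. Alternatives were other coverage and methylation thresholds, failed calls in the denominator, protein-coding exons, motifs of any transcript, equal weight per gene, shared positions, each clone left out and other adjustments. Added after seeing the data were leaving out Gm42418 and RefSeq-linked exons.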

Additional observations from a re-analysis of the deposited data

Results flagged for a closer look

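Calls of a modification other than m6A were not part of the comparisons. At 6 DAACH positions they made up 10% or more of the valid calls in DMSO, which is why they are listed. These were UAACU sites in Smarcd1 (6 of 56 calls) and Rrn3 (3 of 25), a UAACC site in Ran (3 of 26), UAACA sites in Srrt (6 of 59) and Ifrd2 (11 of 70), and a GAACC site in 5730416F02Rik (7 of 34, the highest at 20.6%). None of the 6 had an m6A call in DMSO, and in STM2457 the shares lay between 6.25% in Ran and 20% in Smarcd1.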

How the results depend on the processing

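The DAACH share stayed below the DGACH share, as a mean over libraries, under each alternative run. Of 196 values for 21 results, 80 lay outside the interval or threshold of the main run. A reversal of direction was looked for only in the mean difference between DAACH and DGACH. This mean difference, -6.49 points, was -4.84 and -2.93 points with at least 50 and 100 valid calls, -9.15 and -3.77 points with methylation thresholds of 10% and 50%, and -6.5 to -6.46 points without a Mettl5KO replicate. Coverage minimums of 50 and 100 valid calls gave a median relative decrease of 83.7% and 83.6% for DAACH and of 81.4% and 82.3% for DGACH, kept shares of 18.2% and 16.3% for DGACH and of 12.6% for DAACH (100 calls), and 907 and 477 DAACH positions called lower, out of fewer tested. With methylation thresholds of 10% and 50% in place of 25%, the decrease was 85.1% and 77.6% for DAACH and 83.5% and 75.03% for DGACH, and the kept shares were 23.7% and 6.70% for DAACH and 33.9% and 10.5% for DGACH. With equal weight per gene, DGACH had a decrease of 80.9% and a kept share of 15.2%.

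The few calls in the clones changed most, and the cause was not tested beyond what each setting leaves out. The 1 call of clone 1 became 0 with protein-coding exons, without Gm42418 or with RefSeq-linked exons, and 2 when adjusted over positions at 25% or more. The 3 calls of clone 2 became 0 with protein-coding exons, 1 without Gm42418, 1 with RefSeq-linked exons and 1 with failed calls in the denominator. No paired analysis was possible because the groups share fewer than 2 replicate numbers. DMSO, STM2457 and WT have 1 library each, and each Mettl5KO clone has 1, so errors between cultures are not known.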
